A study of Drosophila melanogaster with 37 samples.

Results

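Chromosome 4 of Drosophila melanogaster held 1021 of the 100184 regions that ChIP-seq with antibodies against CLAMP, GAF and MSL3 gave on the 6 chromosome arms of S2 cells, a male cell line. Members were all regions placed on chromosome 4 in any of the 25 deposited peak lists, merged within an antibody where they shared at least 1 bp. They comprised 319 CLAMP, 151 GAF and 551 MSL3 regions, against 19785 CLAMP, 40085 GAF and 39293 MSL3 regions on the 5 large arms (2L, 2R, 3L, 3R and X). Chromosome 4 was 1.28 Mb long as far as its last called base in build dm3, which is 1.06% of the summed length of the 6 arms.

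CLAMP, which contacts GA repeats through its zinc fingers, brings the dosage compensation complex to the male X. GAF, the GAGA factor encoded by trl, binds similar GA-rich DNA at many promoters, and MSL3 is a chromodomain subunit of the MSL dosage compensation complex, which spreads over active X-linked genes. Chromosome 4 is the small dot chromosome, much of it packed with the heterochromatin protein HP1a, with active genes interspersed. It has a chromosome-wide protein of its own, POF, which binds its active genes much as the MSL complex binds those of the male X.

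The cells had taken up 4.5 ug/mL of double-stranded RNA against CLAMP, against GAF or, as the control, against GFP, a gene that flies lack. CLAMP antibody lists numbered 2 after CLAMP RNAi, 2 after GAF RNAi and 3 after GFP RNAi. With the GAF antibody there were 3 lists after CLAMP RNAi, 2 after GAF RNAi and 3 after GFP RNAi. MSL3 lists numbered 3 after CLAMP RNAi, 3 after GAF RNAi and 4 after GFP RNAi. All groups are the same cell line, and the labels do not say whether replicates were separate cultures, so the p-values measure only the spread between these libraries. The lists hold called regions with the fold enrichment and q-value of the authors' peak caller and no read counts, so sequencing depth is unknown. List length on the 6 arms ran from 103 to 33316 regions, and the CLAMP lists after CLAMP RNAi, with 749 and 430 regions, were the shortest of that antibody.

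The number of regions on chromosome 4 differed widely between replicates of a treatment. With the CLAMP antibody it was 4 and 6 after CLAMP RNAi, 229 and 94 after GAF RNAi, and 103, 7 and 40 after GFP RNAi. GAF regions numbered 11, 9 and 54 after CLAMP RNAi, 80 and 29 after GAF RNAi, and 40, 10 and 9 after GFP RNAi. MSL3 regions numbered 0, 0 and 163 after CLAMP RNAi, 200, 96 and 21 after GAF RNAi, and 231, 0, 0 and 431 after GFP RNAi. Within each antibody the GFP RNAi lists alone ranged widely, and the ranges of the treatments overlapped with 1 exception. The 4 and 6 CLAMP regions after CLAMP RNAi lay below every other count of that antibody, in lists that were also its shortest.

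Expressed per Mb, CLAMP regions on chromosome 4 ranged from 3.14 (CLAMP RNAi replicate 1) to 179.5 (GAF RNAi replicate 1), where the large arms of the same lists had 6.26 and 61.3. The largest control value was 80.7 regions per Mb on chromosome 4 in GFP RNAi replicate 1, against 44.4 on the large arms. GFP RNAi replicate 4 went the other way, with 31.4 regions per Mb on chromosome 4 and 92.0 on the large arms. GAF regions were sparser on chromosome 4 than on the large arms in 6 of 8 lists, for example 31.4 against 245.4 per Mb in GFP RNAi replicate 1. The exceptions were CLAMP RNAi replicate 3, with 42.3 on chromosome 4 against 37.9 on the large arms, and GAF RNAi replicate 1, with 62.7 against 34.8. MSL3 regions were denser on chromosome 4 in 2 of 10 lists: CLAMP RNAi replicate 3 with 127.8 against 100.6 per Mb, and GFP RNAi replicate 4 with 337.9 against 263.0 per Mb. In that last list chromosome 4 was the densest of the 6 arms.

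The share of a list's regions that lay on chromosome 4, less the share of the span (1.06%), was then averaged over the libraries of an antibody and tested by exact two-sided sign-flip permutation with Benjamini-Hochberg adjustment over the 3 antibodies. CLAMP averaged 0.202 ± 0.986 percentage points above the share of the span (SD, n = 7 libraries, 4 of them above, adjusted exact p = 0.656). GAF averaged -0.484 ± 0.628 points (SD, n = 8, 6 of them below, adjusted exact p = 0.164). MSL3 averaged -0.590 ± 0.553 points (SD, n = 10, 8 of them below, adjusted exact p = 0.0469). The MSL3 call is the only one of the 3 that passed 0.05. It was lost when any of 8 of the 10 libraries was left out. In the 6 libraries with at least 1 region on chromosome 4 the mean was -0.275 points (adjusted exact permutation p = 0.375). That choice drops the libraries with the lowest value of the measure itself, so it does not test the call. With the X left out of the comparison it was -0.795 points (adjusted exact permutation p = 0.0234).

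The picture was more even among confident regions. At a −log10 q of at least 5, chromosome 4 held 1 and 0 CLAMP regions after CLAMP RNAi, 19 and 9 after GAF RNAi, and 10, 5 and 7 after GFP RNAi. The second CLAMP RNAi list has no such region on any arm. GAF regions at that limit numbered 6, 6 and 13 after CLAMP RNAi, 11 and 11 after GAF RNAi, and 11, 7 and 6 after GFP RNAi. These were 0.404% to 0.774% of the CLAMP regions at that limit and 0.165% to 0.460% of the GAF regions, so every one of the 6 CLAMP and 8 GAF lists lay under the 1.06% of the span. Chromosome 4 had the lowest density of all 6 arms in 5 of 6 CLAMP lists and in 8 of 8 GAF lists. The mean difference from the span was -0.501 points for CLAMP (adjusted exact permutation p = 0.0469, n = 6, where the smallest unadjusted p possible is 0.0312) and -0.734 points for GAF (adjusted exact permutation p = 0.0234, n = 8). No MSL3 region on chromosome 4 reached this limit in any list, and 2 reached a −log10 q of 1.3, both in GAF RNAi replicate 2. On the large arms MSL3 regions at the limit of 5 were also few, from 0 to 49 per list.

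**Figure D1:**
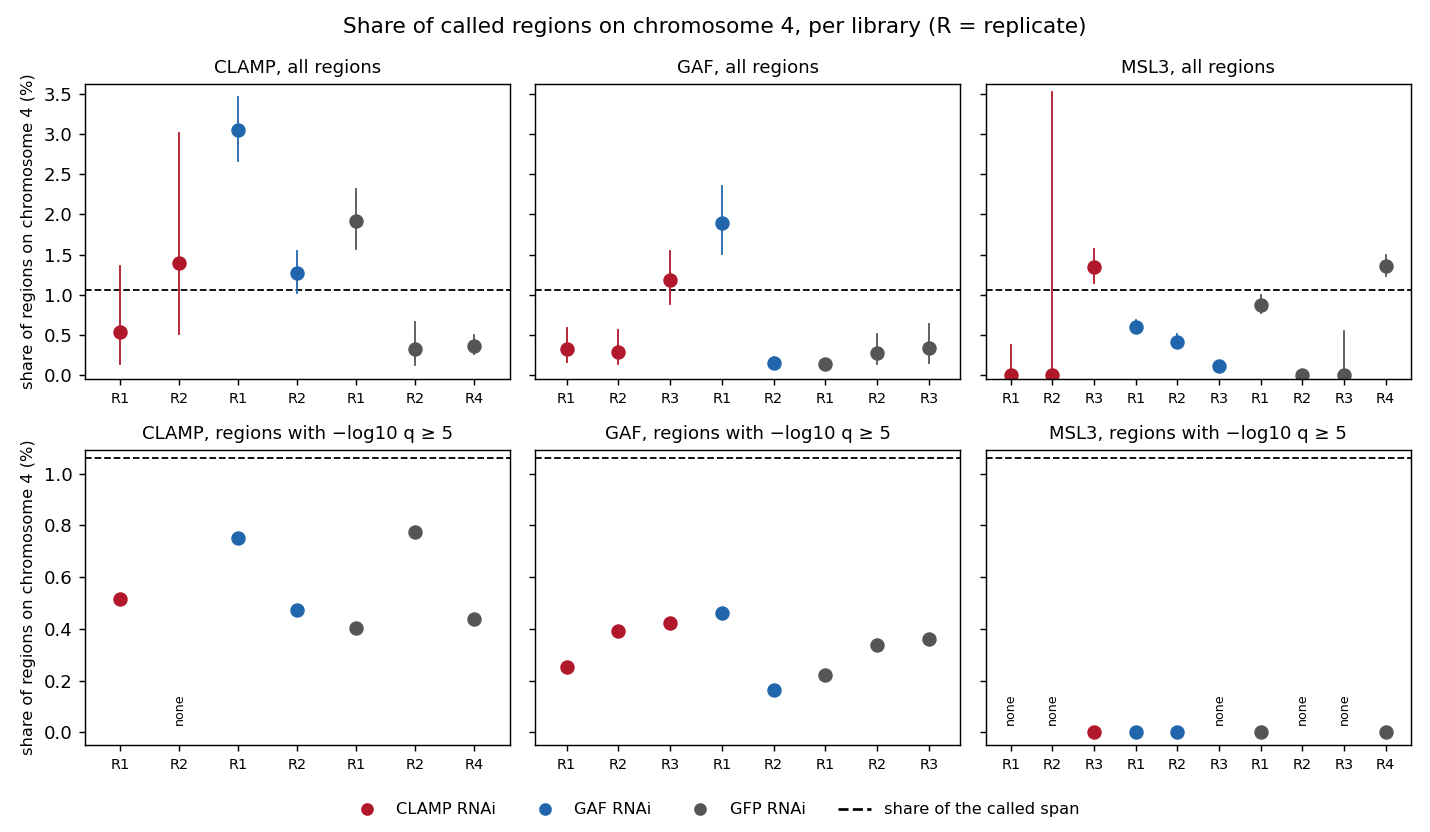
Share of called regions that lay on chromosome 4 (percent, vertical axes) in each library (horizontal axes, grouped by RNAi), for all regions in the upper row with exact 95% binomial intervals and for regions with −log10 q of at least 5 in the lower row; the dashed line is the 1.06% of the span that is chromosome 4. All regions scatter on both sides of the line, up to 3.04% for CLAMP, and the confident CLAMP and GAF regions lie under it in every list that has any.

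The lists also differed in the share of their regions that lay outside the 6 arms. CLAMP lists had 0.133% and 0% of all their regions on sequences outside the 6 arms (unplaced and heterochromatic sequence of the build) after CLAMP RNAi, 3.92% and 1.76% after GAF RNAi, and 2.98%, 0.138% and 0.0728% after GFP RNAi. The corresponding shares on chromosome 4 were 0.534% and 1.40%, 3.04% and 1.27%, and 1.91%, 0.321% and 0.364%. For GAF the shares outside the arms were 0.0602%, 0.0327% and 2.75% after CLAMP RNAi, 3.21% and 0.523% after GAF RNAi, and 0.361%, 0.169% and 0.0374% after GFP RNAi. The GAF shares on chromosome 4 were 0.331%, 0.294% and 1.18%, 1.90% and 0.159%, and 0.137%, 0.282% and 0.336% in the same order. In both antibodies the lists with 1.76% or more of their regions outside the arms had 1.18% or more on chromosome 4, and the only other list as high was the second CLAMP RNAi list of CLAMP, with 6 regions there. MSL3 lists did not follow this order. They had 2.96%, 9.65% and 3.11% of their regions outside the arms after CLAMP RNAi, 1.56%, 1.03% and 0.867% after GAF RNAi, and 1.96%, 0.826%, 3.33% and 2.68% after GFP RNAi. Their shares on chromosome 4 were 0%, 0% and 1.34%, then 0.600%, 0.419% and 0.113%, and then 0.878%, 0%, 0% and 1.36%. Whether this feature of the lists has a part in the counts on chromosome 4 was not tested.

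A small set of sites carried the calls that recurred. Of the 319 CLAMP regions, 243 were called in 1 library, 7 in at least 4 of the 7 libraries and 4 in all 7. On chromosome 4 that is 76.2% in 1 library and 2.19% in at least 4, against 74.2% and 11.4% on the large arms. Of the 151 GAF regions, 117 were called in 1 library, 9 in at least 5 of the 8 libraries and 6 in all 8. That is 77.5% in 1 library and 5.96% in at least 5, against 73.1% and 6.63% on the large arms. Per Mb this gave 3.14 CLAMP regions called in every library on chromosome 4 against 3.06 on the large arms, and 4.70 GAF regions against 13.9. Each GAF list had 7 to 10 of its calls at those recurrent GAF sites. CLAMP lists had 4 and 6 calls at the recurrent CLAMP sites after CLAMP RNAi, 10 and 8 after GAF RNAi, and 8, 7 and 8 after GFP RNAi. The shorter CLAMP lists had fewer. The remainder ran from 0 to 219 regions in CLAMP lists and from 0 to 71 in GAF lists. All 4 and all 6 CLAMP regions left on chromosome 4 after CLAMP RNAi, and all 7 in GFP RNAi replicate 2, were at recurrent sites. On the large arms of these short lists it was 96.5%, 100% and 97.2% of regions. Of the 4 and 6 regions after CLAMP RNAi, only 2 and 2 had a −log10 q above 0. A −log10 q of 1.3 was reached by 50% and 16.7% of them, against 55.2% and 17.7% on the large arms. In the longer CLAMP lists 4.37% and 8.51% of regions on chromosome 4 were at recurrent sites after GAF RNAi, against 34.6% and 29.3% on the large arms. In GFP RNAi replicates 1 and 4 it was 7.77% and 20%, against 46.1% and 20.7%. The longest GAF lists went the other way, with 24.1% on chromosome 4 against 12.2% on the large arms in GAF RNAi replicate 2, and 22.5% against 9.996% in GFP RNAi replicate 1. The sites were defined from these same lists, so the shares describe them and test nothing.

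**Figure D2:**
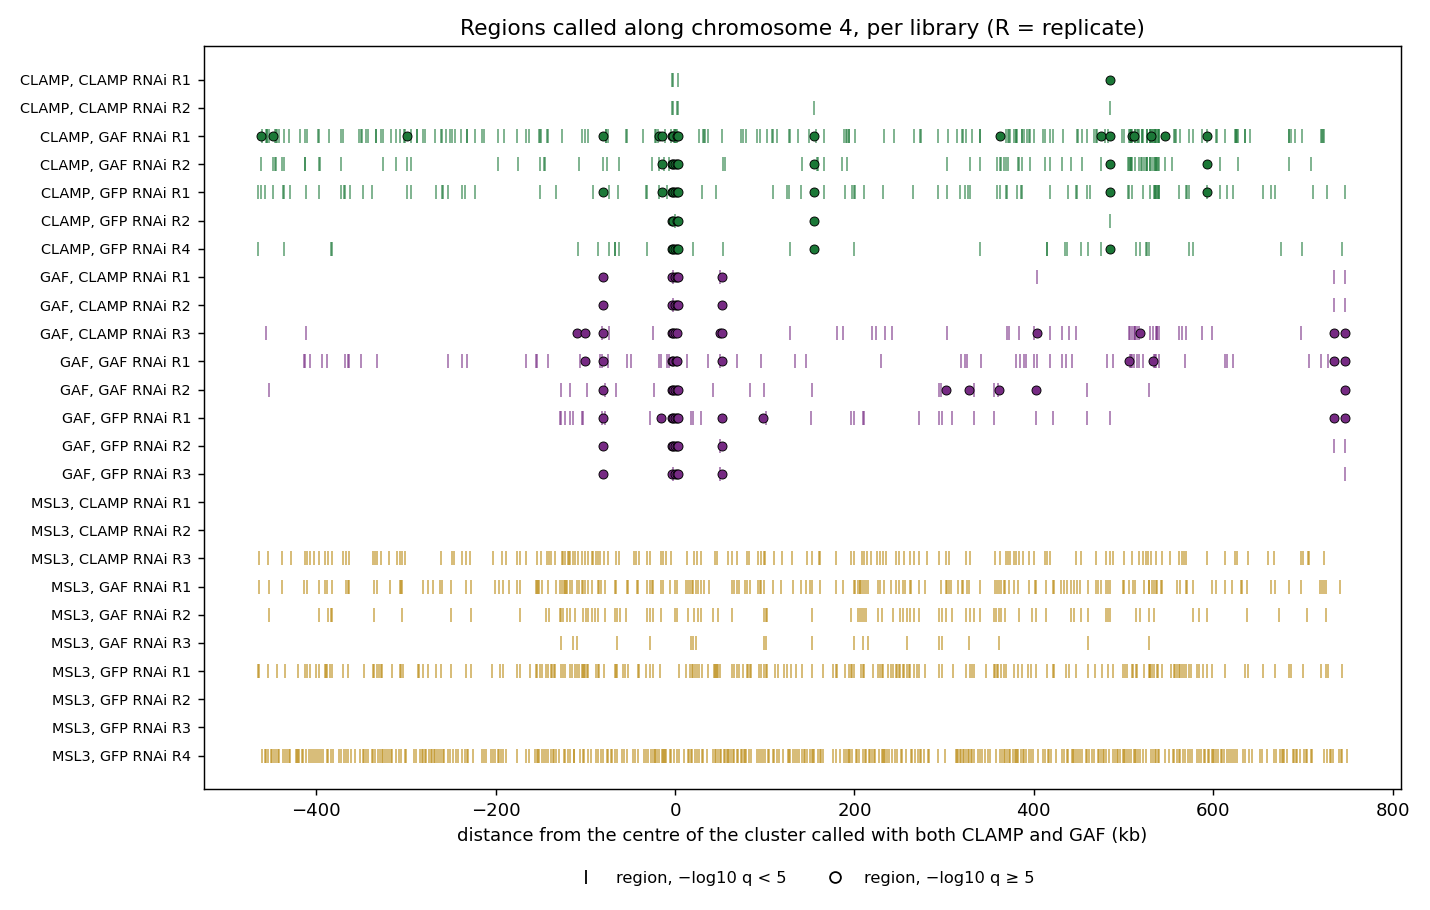
Every region called on chromosome 4, one library per row, by the distance of its midpoint (kb) from the centre of the cluster that both CLAMP and GAF occupy; circles are regions with a −log10 q of at least 5 and bars are the rest. CLAMP and GAF lists share the column at 0, the long CLAMP list of GAF RNAi replicate 1 fills most of the chromosome with bars, and MSL3 regions are bars throughout, with 4 empty rows.

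The most regular place on the chromosome was a cluster of CLAMP and GAF sites at chr4:521886-529536, 7651 bp long. It contained 4 of the 7 recurrent CLAMP sites and 4 of the 9 recurrent GAF sites, each CLAMP site sharing bases with a GAF site. The first CLAMP site, chr4:521886-522707, had a fold enrichment of 4.24 and 3.82 after CLAMP RNAi, 4.98 and 8.47 after GAF RNAi, and 8.87, 6.47 and 3.47 after GFP RNAi. It was called in every list, and the folds after each RNAi lay within the range of those after GFP RNAi. Each fold is relative to its own library. The GAF site at the same place, chr4:521869-523060, had folds of 9.41, 6.96 and 11.8 after CLAMP RNAi, 5.88 and 7.83 after GAF RNAi, and 10.4, 8.12 and 5.998 after GFP RNAi. It too was called in every GAF list, those after GAF RNAi included. Where a list had more than 1 call within a merged site, the highest fold is given. The last CLAMP site of the cluster, chr4:527095-529536, had folds of 2.60 and 2.95 after CLAMP RNAi, 7.29 and 4.09 after GAF RNAi, and 6.45, 5.43 and 6.91 after GFP RNAi. All CLAMP RNAi calls there had a −log10 q of 0, and in replicate 1 only the part at chr4:529080-529359 was called. The GAF counterpart of this last site, chr4:527198-529520, ran from 4.72 (GFP RNAi replicate 3) to 13.5 (GAF RNAi replicate 2).

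One site of the cluster was missing after CLAMP RNAi. The CLAMP site at chr4:525540-526657 was called in neither CLAMP RNAi list, at folds of 1.95 and 3.29 after GAF RNAi, and at 4.54, 2.57 and 3.73 after GFP RNAi. The GAF site there, chr4:525307-527019, was called in all 8 GAF lists, at folds of 10.6, 8.43 and 6.49 after CLAMP RNAi, 5.38 and 10.4 after GAF RNAi, and 4.98, 6.30 and 5.07 after GFP RNAi. GAF calls at this site were therefore present in the 3 lists from CLAMP RNAi cells, although the 2 CLAMP lists from CLAMP RNAi cells lacked a call. A region missing from a list may lie under the caller's limit and is not shown to be unbound.

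The other recurrent sites were called mainly with one antibody. The CLAMP site at chr4:1009905-1010543 was called in all 7 CLAMP lists and in 1 of 8 GAF lists, at folds of 5.37 and 4.56 after CLAMP RNAi, 13.2 and 9.80 after GAF RNAi, and 7.47, 3.76 and 6.86 after GFP RNAi. Its 5.37 and 4.56 were the highest folds on chromosome 4 in the CLAMP RNAi lists, as were its 13.2 and 9.80 in the GAF RNAi lists. The CLAMP site at chr4:680662-681520 was called in 6 CLAMP lists and in no GAF list. Its fold was 2.78 in CLAMP RNAi replicate 2 (at a −log10 q of 0), 10.1 and 8.61 after GAF RNAi, and 5.76, 6.31 and 3.60 after GFP RNAi. A weaker CLAMP site, chr4:89181-89818, was called in both GAF RNAi lists and in 2 GFP RNAi lists at folds of 1.56 to 2.46, and in no GAF list. The sites at chr4:725006-725270 and chr4:60708-61149 were called in GFP RNAi replicates 1 and 4 and in no other CLAMP list, at folds of 2.21 and 2.09 for the one and 1.83 and 1.94 for the other.

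Among the GAF sites, chr4:577708-578211 was called in 7 of 8 GAF lists and in none of the 7 CLAMP lists. Its folds were 10.7, 7.997 and 7.84 after CLAMP RNAi, 4.54 in GAF RNAi replicate 1 (not called in replicate 2), and 3.69, 9.22 and 5.60 after GFP RNAi. The GAF site at chr4:444632-446111 was called in all 8 GAF lists and in 3 CLAMP lists, with folds of 4.91, 5.39 and 9.95 after CLAMP RNAi, 13.1 and 3.93 after GAF RNAi, and 5.56, 5.05 and 6.58 after GFP RNAi. The 2 GAF RNAi values lay on either side of all 3 GFP RNAi values. A site near the end of the called chromosome, chr4:1272320-1272925, was called in all 8 lists at folds of 1.70 to 4.95. The sites chr4:575511-576045, called in 5 lists, and chr4:1260743-1260988, called in 6, were found in no CLAMP list.

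**Figure D3:**
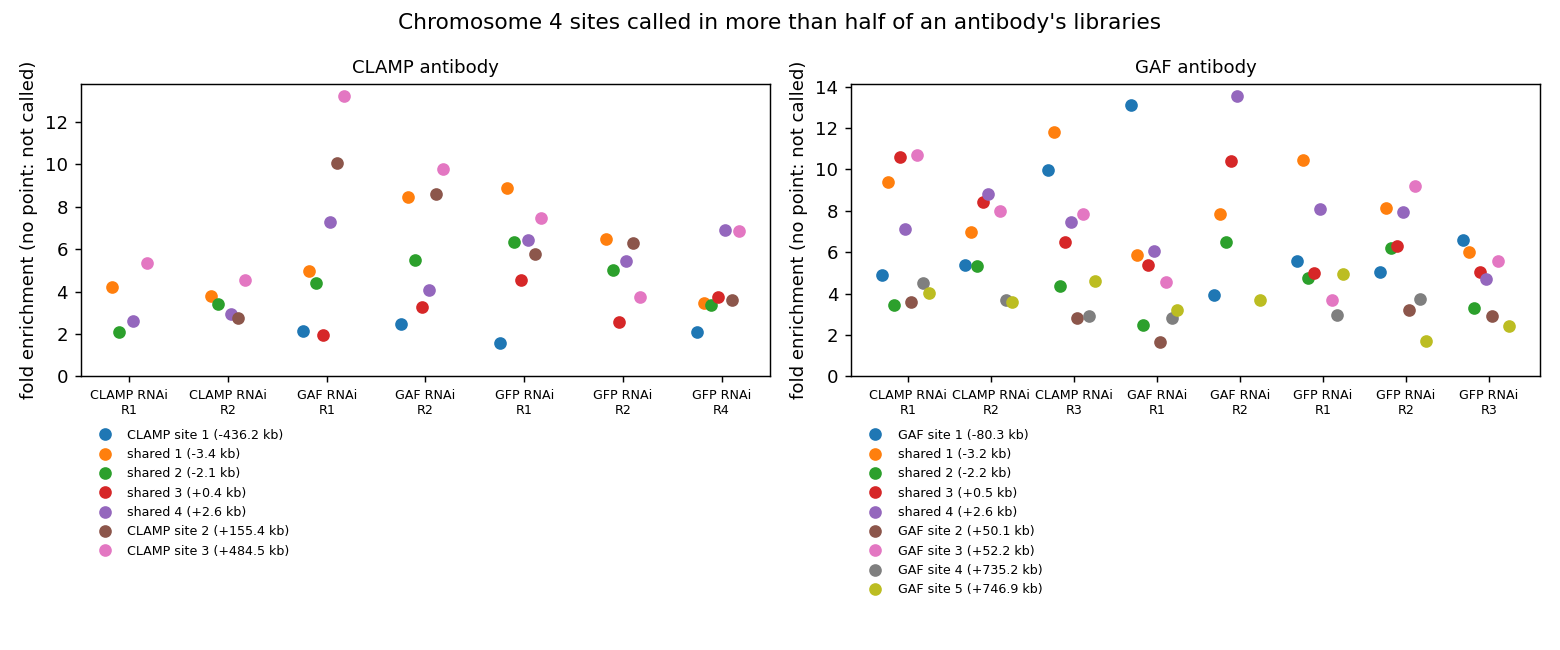
Fold enrichment (vertical axes) of the CLAMP and GAF sites on chromosome 4 that were called in at least 4 of 7 CLAMP or 5 of 8 GAF libraries, by library (horizontal axes); legend entries give the distance of a site from the centre of the shared cluster, and "shared" marks a site that overlaps a control site of the other factor. The shared sites are called in every GAF list, and the third shared site has no CLAMP point after CLAMP RNAi.

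Strength over all regions was compared through the percentile of each chromosome 4 region's fold enrichment among the large-arm regions of the same list, where 50 means no difference. For CLAMP the mean percentile was 52.5 in CLAMP RNAi replicate 2 (replicate 1 had under 5 regions and was not used), 40.7 and 49.3 after GAF RNAi, and 30.1, 70.1 and 49.8 after GFP RNAi. GAF regions averaged 49.6, 69.9 and 27.1 after CLAMP RNAi, 28.4 and 61.9 after GAF RNAi, and 63.8, 61.1 and 52.0 after GFP RNAi. MSL3 regions averaged 68.7 in CLAMP RNAi replicate 3, 56.4, 61.7 and 48.6 after GAF RNAi, and 62.2 and 45.5 in GFP RNAi replicates 1 and 4. Less 50, the means over libraries were -1.26 ± 13.3 for CLAMP (SD, n = 6, adjusted exact p = 0.844), 1.71 ± 16.1 for GAF (SD, n = 8, adjusted exact p = 0.844) and 7.18 ± 8.83 for MSL3 (SD, n = 6, adjusted exact p = 0.375). None passed the exact sign-flip permutation test, and all SDs exceeded the means.

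The strongest regions of chromosome 4 nevertheless lay within the range of the large arms. The highest CLAMP fold on chromosome 4 was 13.2 in GAF RNAi replicate 1, where the large arms reached 18.3, and in GFP RNAi replicate 1 it was 8.87 against 13.4. In GAF RNAi replicate 1 the GAF site at chr4:444632-446111, with a fold of 13.1, stood close to the maximum of 13.2 on the large arms. MSL3 folds on chromosome 4 ended at 2.45 in GFP RNAi replicate 4, against 7.03 on the large arms, and at 1.70 in GFP RNAi replicate 1, against 3.28.

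**Figure D4:**
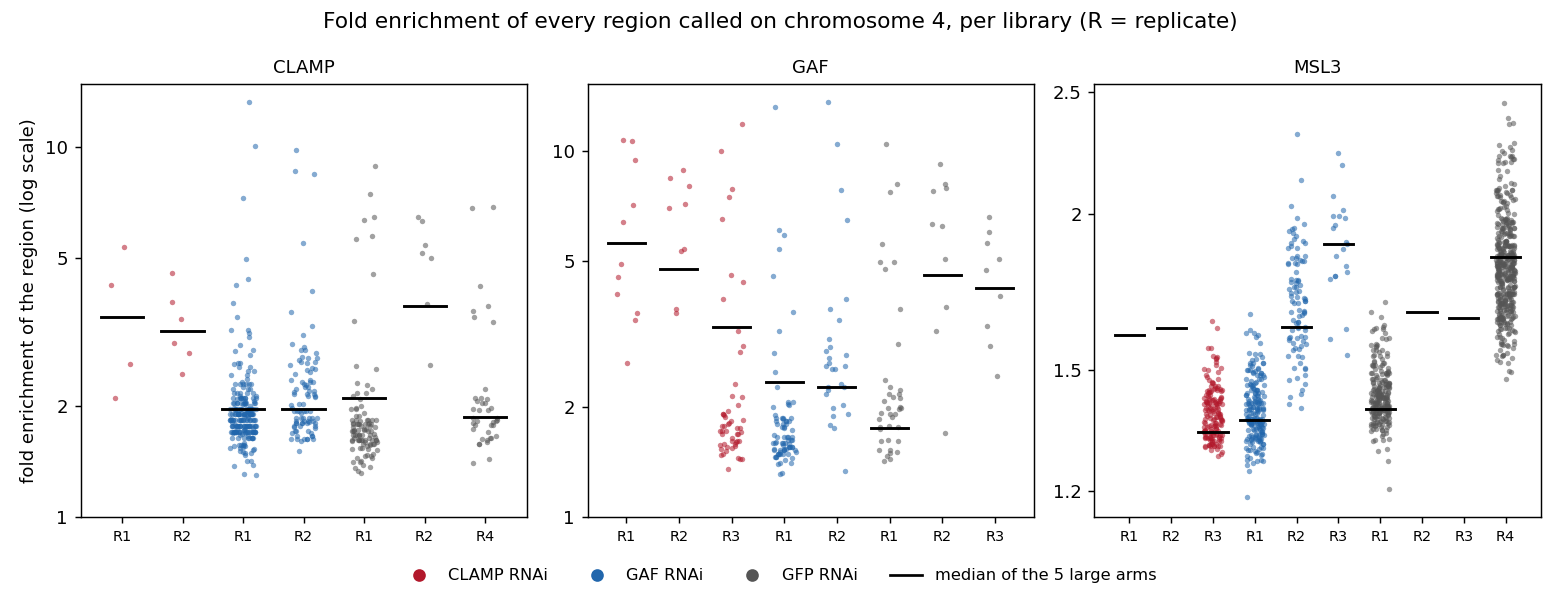
Fold enrichment of every region called on chromosome 4 (points, logarithmic vertical axes) in each library (horizontal axes, grouped by RNAi), with the median of the 5 large arms of the same list as a black line. Long CLAMP and GAF lists hold a few regions above a fold of 5 and many weak ones, whose number differs between replicates, while the CLAMP lists after CLAMP RNAi hold 4 and 6 regions with a highest fold of 5.37 and 4.56; MSL3 points stay under 2.5.

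Widths gave a similar result. Median widths of CLAMP regions on chromosome 4 ran from 208 bp (GAF RNAi replicate 1) to 394 bp (GFP RNAi replicate 2), where the large arms had 233 and 244 bp. GAF medians ran from 281.5 bp (GAF RNAi replicate 1) to 517 bp (CLAMP RNAi replicate 2), against 364 and 360 bp on the large arms. MSL3 medians ran from 398 bp (GAF RNAi replicate 2) to 759 bp (CLAMP RNAi replicate 3), against 820 and 799 bp. The log2 ratio of the median width on chromosome 4 to that on the large arms was -0.03 ± 0.36 (mean ± SD over 6 libraries) in CLAMP lists. In GAF lists it was 0.01 ± 0.37 (8 libraries), and in MSL3 lists -0.23 ± 0.49 (6 libraries). The adjusted p-values of the exact sign-flip permutation test were 0.953, 0.953 and 0.844. Of the 6 MSL3 libraries, 5 had narrower regions on chromosome 4, and GFP RNAi replicate 4 had wider ones, with 662 bp against 506 bp.

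Overlap of the antibodies was first measured at control sites, meaning merged regions called in at least 2 GFP RNAi lists of an antibody. Chromosome 4 had 12 CLAMP control sites (9.41 per Mb, against 23.0 on the large arms), 10 GAF control sites (7.84 per Mb against 27.0) and 104 MSL3 control sites (81.5 per Mb against 119.5). Of the 12 CLAMP sites, 5 shared bases with a GAF control site, which is 41.7% (exact 95% interval 15.2% to 72.3%), against 49.3% of 2739 on the large arms. Of the 10 GAF sites, the same number shared bases with a CLAMP control site, 50% (18.7% to 81.3%), against 41.4% of 3209. All 5 lay in the cluster at chr4:521886-529536. Intervals cover counting error only, and neighbouring sites are not independent.

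MSL3 control sites rarely met the other factors, on chromosome 4 or on the large arms. Of the 104 on chromosome 4, 0.962% shared bases with a CLAMP control site, against 3.72% on the large arms. With a GAF control site it was 0.962% against 3.05%. One of the 12 CLAMP control sites, chr4:1098509-1098895, shared bases with an MSL3 control site, 8.33% (0.211% to 38.5%) against 21.1% on the large arms. One of the 10 GAF control sites, chr4:575588-575874, did so, 10% against 14.1%. The CLAMP control site at chr4:1009940-1010543 began 27 bp from the nearest MSL3 control site, chr4:1008588-1009913, without sharing a base with it. Merged over all CLAMP lists the CLAMP site is chr4:1009905-1010543, which does share bases with that MSL3 control site. No place on chromosome 4 held control sites of all 3 antibodies, that is 0 of 12 CLAMP control sites against 148 of 2739 (5.40%) on the large arms. All 104 MSL3 control sites rest on GFP RNAi replicates 1 and 4, since replicates 2 and 3 had no region on chromosome 4.

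Within single lists, the difference in overlap between chromosome 4 and the large arms changed sign from list to list. The share of CLAMP regions at GAF control sites was 66.7% on chromosome 4 against 55.7% on the large arms in CLAMP RNAi replicate 2, 3.49% against 22.8% and 6.38% against 19.7% after GAF RNAi, and 5.83% against 33.0%, 71.4% against 50.8% and 12.5% against 15.2% after GFP RNAi. The mean difference was -5.14 ± 18.4 points (SD, n = 6, adjusted exact p = 0.992). For GAF regions at CLAMP control sites it was -0.129 ± 16.9 points (SD, n = 8, adjusted exact p = 0.992), with values from -27.5 points in GAF RNAi replicate 1 to 11.9 points in GFP RNAi replicate 1. For MSL3 regions at CLAMP control sites it was -0.0391 ± 1.75 points (SD, n = 6, adjusted exact p = 0.992), and the shares on chromosome 4 were all between 0.928% and 4.76%. None passed the exact sign-flip permutation test.

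Over all merged regions, 16.0% of CLAMP regions on chromosome 4 shared bases with a merged GAF region, against 42.7% on the large arms. The merged GAF regions covered 4.44% of the span of chromosome 4 and 13.7% of that of the large arms. Conversely, 36.4% of GAF regions on chromosome 4 shared bases with a CLAMP region, against 20%, where CLAMP regions covered 8.34% of chromosome 4 and 6.20% of the large arms. Of the MSL3 regions, 31.9% shared bases with a CLAMP region against 25.4% on the large arms, and 19.8% with a GAF region against 50.4%. In each of these pairs the share was higher on the part of the genome with more bases covered by the other factor. Control sites kept this order except for GAF sites at CLAMP sites, 50% of 10 on chromosome 4 against 41.4% on the large arms. CLAMP control sites covered 0.589% of chromosome 4 and 1.23% of the large arms. Whether coverage has a part in the overlap was not tested. Merged MSL3 regions covered 46.3% of chromosome 4 and 57.8% of the large arms, and 77.4% of CLAMP and 90.1% of GAF regions on chromosome 4 touched one, against 85.8% and 93.4%.

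The RNAi comparisons asked whether the share of regions on chromosome 4 differed from that in GFP RNAi cells. CLAMP RNAi lists of CLAMP averaged 0.965% ± 0.609 (SD, n = 2) and GFP RNAi lists 0.867% ± 0.908 (SD, n = 3), with an exact permutation p of 1. After GAF RNAi the CLAMP share averaged 2.16% ± 1.26 (SD, n = 2), 1.29 points above the GFP RNAi mean, with an exact permutation p of 0.4. GAF lists averaged 0.603% ± 0.502 after CLAMP RNAi (SD, n = 3) and 1.03% ± 1.23 after GAF RNAi (SD, n = 2), against 0.252% ± 0.103 after GFP RNAi (SD, n = 3), with exact permutation p of 0.3 and 0.6. MSL3 lists averaged 0.448% ± 0.775 after CLAMP RNAi (SD, n = 3) and 0.378% ± 0.246 after GAF RNAi (SD, n = 3), against 0.559% ± 0.675 after GFP RNAi (SD, n = 4), with exact permutation p of 0.914 and 0.743. All 6 adjusted p-values were 1. With these numbers the smallest two-sided p possible is 0.2 (3 against 2 libraries), 0.1 (3 against 3) or 0.057 (4 against 3), so no comparison could pass 0.05.

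Sites called in every GFP RNAi list of an antibody and in no list of an RNAi were counted as lost. Of 6 CLAMP sites on chromosome 4 called in every GFP RNAi list, 1 was lost after CLAMP RNAi, the site at chr4:525540-526657 described above. On the 6 arms 60.7% of 1745 such CLAMP sites were lost. Shares of all lost sites are of the sites on the 6 arms called in every GFP RNAi list of the antibody. After GAF RNAi 0 of 6 were lost, against 0.86% of all. Of 7 GAF sites on chromosome 4, 0 were lost after CLAMP RNAi (0.493% of all) and 0 after GAF RNAi (2.29% of all). For MSL3 no site on chromosome 4 could be lost, because no region there was called in all 4 GFP RNAi lists. Of the 12 CLAMP control sites, 4 and 6 were called in the CLAMP RNAi lists (33.3% and 50%, against 25.1% and 14.9% on the large arms), and 9 and 8 in the GAF RNAi lists (75% and 66.7%, against 90.1% and 81.6%). Calls count here at any q, and only 2 calls on chromosome 4 in each CLAMP RNAi list had a −log10 q above 0. Of the 10 GAF control sites, 10, 9 and 10 were called in the lists after CLAMP RNAi, against 85.7%, 81.3% and 88.6% on the large arms. In those after GAF RNAi 10 and 7 were called, against 81.5% and 68.3% on the large arms. MSL3 control sites of chromosome 4 were recovered at 0%, 0% and 60.6% after CLAMP RNAi, against 4.31%, 0.394% and 41.5% on the large arms. After GAF RNAi they were recovered at 54.8%, 31.7% and 5.77%, against 80.7%, 69.1% and 57.1%.

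Gained sites were those called in every list of an RNAi and in no GFP RNAi list of the antibody. Of 57 CLAMP sites on chromosome 4 called in every GAF RNAi list, 21 (36.8%) were gained. On the 6 arms 17.2% of 3347 such sites were gained. Shares of all gained sites are of the sites on the 6 arms called in every list of the RNAi. The 21 sites were called in the 2 GAF RNAi lists and in no other CLAMP list, and those lists had 229 and 94 regions on the chromosome, against 103, 7 and 40 in the GFP RNAi lists. Restricting the lists to −log10 q of 1.3 or more left 13 of 28 (46.4%, against 8.05% of all), and a limit of 5 left 0 of 7 (5.15% of all). Cutting them to equal length left 5 of 11 (45.5%, against 5.06% of all). Without GFP RNAi replicate 1 the count was 44 of 57 (77.2%, against 34.0% of all). Without GAF RNAi replicate 1 it was 49 of 93 (52.7%, close to the 50.2% of all), and without GAF RNAi replicate 2 it was 178 of 225 (79.1%, against 51.0% of all). No CLAMP site on chromosome 4 was gained after CLAMP RNAi (0 of 4, and 0% of all). For GAF, 0 of 8 sites were gained after CLAMP RNAi (3.69% of all) and 0 of 6 after GAF RNAi (1.67% of all). For MSL3, 0 of 13 were gained after GAF RNAi, where 5.18% of all were.

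CLAMP regions of low fold lay densely in one stretch, chosen after the values were seen. From chr4:1030417-1065966, 35550 bp, 12 sites were called in 3 CLAMP libraries each, which was the most that any site of the stretch reached. The stretch held 0 and 0 regions after CLAMP RNAi, 32 and 24 after GAF RNAi, and 13, 0 and 5 after GFP RNAi. No CLAMP fold there exceeded 2.93, while the 7651 bp cluster reached 8.87. The −log10 q of CLAMP regions there nevertheless reached 9.09 in GAF RNAi replicate 1. Of merged regions, the stretch held 25 of 319 CLAMP and 19 of 151 GAF, none of the GAF regions in more than 2 libraries. Both MSL3 regions of chromosome 4 that reached a −log10 q of 1.3 lay in it, at chr4:1039665-1039945 with a fold of 2.32 and at chr4:1053512-1054962 with a fold of 2.13, both in GAF RNAi replicate 2. So did the widest merged MSL3 regions of the chromosome, chr4:1030297-1040861 (10565 bp, 5 libraries, beginning just before the stretch) and chr4:1053512-1063625 (10114 bp, 6 libraries).

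MSL3 regions were low in fold on chromosome 4 and on the large arms alike. Their median folds per list ran from 1.38 to 1.89 on chromosome 4 (6 lists) and from 1.34 to 1.89 on the large arms (10 lists). They covered 14.9% of the chromosome in CLAMP RNAi replicate 3, 8.52%, 4.73% and 1.19% after GAF RNAi, and 10.9% and 29.1% in GFP RNAi replicates 1 and 4. The large arms had 10.9% in CLAMP RNAi replicate 3, 25.2%, 23.8% and 17.5% after GAF RNAi, and 15.7% and 17.4% in the GFP RNAi lists. The lists without a region on chromosome 4 were CLAMP RNAi replicates 1 and 2 (of 984 and 103 regions) and GFP RNAi replicates 2 and 3 (of 10572 and 668 regions). Taking 3 regions of a list as the limit, a count of 0 there allows a share of up to 0.305%, 2.91%, 0.0284% and 0.449%. The exact 95% intervals drawn in the plot of shares end at 0.374%, 3.52%, 0.0349% and 0.551%. Only in GFP RNAi replicate 2 was either limit below the 0.113% of the lowest list that had any region there, GAF RNAi replicate 3.

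No MSL3 region on chromosome 4 was called in more than 6 of the 10 lists, and 332 of the 551 (60.3%) were called in 1, against 38.1% on the large arms. The site at chr4:545538-549080 was among 8 called in 6 lists, with folds of 1.54 in CLAMP RNAi replicate 3, 1.45, 1.57 and 1.96 after GAF RNAi, and 1.62 and 2.09 in GFP RNAi replicates 1 and 4. Another, chr4:778537-785210, had folds of 1.34 in CLAMP RNAi replicate 3, 1.34, 1.54 and 1.85 after GAF RNAi, and 1.51 and 2.09 in those GFP RNAi lists. Highest by rank in the control lists was chr4:291591-294139, called in 4 lists at folds of 1.31 (CLAMP RNAi replicate 3), 1.32 (GAF RNAi replicate 1), and 1.61 and 2.16 (GFP RNAi replicates 1 and 4). The 5 others of the 8 highest in the control lists, chr4:755572-758234, chr4:721811-722849, chr4:625999-627647, chr4:1084781-1086388 and chr4:141586-143947, were called in 3 to 5 lists at folds of 1.33 to 2.22. The highest −log10 q at any of the first 3 sites was 0.155, at chr4:545538-549080 in GAF RNAi replicate 1. Of the 21 regions in GAF RNAi replicate 3, 81.0% shared bases with a region of GAF RNAi replicate 1 and 76.2% with one of GFP RNAi replicate 1, against 76.6% and 54.0% of its regions on the large arms. With CLAMP RNAi replicate 3 it was 47.6% against 24.5%, with GAF RNAi replicate 2 66.7% against 58.6%, and with GFP RNAi replicate 4 38.1% against 42.5%.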

How the data were processed

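Per the submitters' processing notes, the build was dm3 and the tools were MACS2 2.1.1 and Bowtie, whose version is not given. Each library has its own list, called by the authors. Each region of the deposited lists carries the fold enrichment (a ratio), a −log10 p and a −log10 q of the authors' caller, used here only to describe, rank or filter regions within a list. CLAMP and GAF lists are narrow peaks and MSL3 lists are broad regions. Depth is unknown, and the reads of the 12 input samples were not analysed here.

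Only the 6 arms were analysed, each from position 1 to its last called base in any list. Coordinates are 1-based in dm3. No dm3 annotation was used, so no gene is named and no sequence is shown. Measures of strength, width and overlap needed 5 regions on chromosome 4 in a list. Tests were exact permutation tests over libraries (Python 3.11.15, numpy 2.4.6, scipy 1.17.1), checked on simulated lists. The main tests did not pair samples by replicate number. In no comparison of 3 or more pairs did all same-numbered libraries deviate together, but so few pairs cannot show whether the numbers pair samples.

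Sites named were the 8 of each antibody called in most GFP RNAi lists and then highest in fold percentile, lost or gained sites, and sites called in most libraries (at least 4 of 7 for CLAMP, 5 of 8 for GAF), which were added after values were seen. The members, measures and lists were chosen with earlier results of these data known.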

Additional observations from a re-analysis of the deposited data

How the results depend on the processing

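Values are means over libraries, and the cause of each change was not tested. For the share of regions on chromosome 4 less that of the span, CLAMP gave -0.109 at −log10 q of 1.3, -0.501 at 5 and -0.164 in equal-length lists, against 0.202 for all regions. GAF, at -0.484, passed 0.05 at -0.624, -0.734 and -0.696 under the same settings and at -0.517 in covered bases. MSL3, at -0.590, no longer passed at -0.284 (equal length) and -0.540 (span from the first called base). Nor did it at -0.275 (libraries with a region there, added later), a choice made on the measure itself. At q of 5 it was -1.06 in each of 5 libraries, as none had such a region on chromosome 4. With 5 libraries this test cannot pass 0.05. Without 1 library at a time the values for all regions ran from -0.0947 to 0.359 for CLAMP, from -0.672 to -0.421 for GAF and from -0.688 to -0.537 for MSL3.

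No fold percentile, width or overlap passed 0.05 in any setting, but signs turned. The percentile less 50 was 0.851 and 4.89 (q of 1.3 and 5), 1.78 (without X) and 1.28 (without recurrent sites, added later) for CLAMP, and -0.801 (ordered by q) for GAF. It ran without 1 library from -5.53 to 2.47 for CLAMP and from -0.887 to 5.22 for GAF. The log2 width ratio was 0.12 and 0.36 (q of 1.3 and 5), 0.078 (equal length) and 0.0098 (mean log2 width) for CLAMP and -0.039 (q of 1.3) for GAF. Without 1 library it ran from -0.17 to 0.025 and from -0.062 to 0.096. The overlap difference was 6.23 (q of 5), 16.2 (equal length) and 0.849 (partner sites in every GFP RNAi list) for CLAMP. For GAF it was 1.48, 11.2, 7.56 and 8.47 (q of 1.3, q of 5, equal length, sites in every list), 1.61 (without X), 0.544 (50% overlap) and 2.02 (sites of all RNAi). For MSL3 it was 0.717, 0.260 and 4.71 under those last 3. Without 1 library it ran from -1.85 to 3.78 for GAF and from -0.666 to 0.384 for MSL3.

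For RNAi less GFP RNAi, the share of CLAMP after CLAMP RNAi was -0.0238 (q of 5) and 0 (equal length). MSL3 after CLAMP RNAi was 0 and 0 (q of 1.3 and 5) and 0.890 (equal length), and after GAF RNAi 0.299 and 0 (q of 1.3 and 5). With the replicate number as a block, which is not known to pair samples, the values were -0.153 (CLAMP after CLAMP RNAi), 0.155 and 0.0848 (MSL3 after CLAMP and GAF RNAi), and no call changed. Without 1 library they ran from -0.333 to 0.622 (CLAMP after CLAMP RNAi), -0.0930 to 1.64 (GAF after GAF RNAi), -0.559 to 0.155 and -0.368 to 0.0848 (MSL3 after CLAMP and GAF RNAi). Strength, width and overlap of MSL3 at a q limit could not be computed, because no list kept 5 regions. Unknown depth limits what a missing call means.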

Other observations

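Merged CLAMP and GAF regions were spread unevenly along chromosome 4, and MSL3 regions more evenly outside the short end windows. In windows of 100000 bp, merged CLAMP regions numbered 16 to 41 per window, and 15 in the last, which is cut short by the last called base at 1275588. The first window is short in the same way, as no list of any antibody had a region before 60708. The 41 lay between 1000001 and 1100000, in the window that holds both the strong site at chr4:1009905-1010543 and the stretch of low-fold sites. That window had 15 CLAMP regions called in at least 3 libraries, against 7 in the window from 500001 to 600000 that holds the cluster shared with GAF. Merged GAF regions numbered 2 in the first window and 26 in the one from 1000001 to 1100000. MSL3 regions numbered 20 in the first window, 37 to 52 in the others and 35 in the short last one. The order of these counts follows all calls, of which most were made in 1 library.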
